A study of Mus musculus with 9 samples.

Results

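Genes of MHC class I antigen presentation and of the interferon response were followed in cultured mouse myoblasts, the dividing precursors of skeletal muscle fibres. The list held 38 genes, taken by symbol from the 47729 genes of the deposited count files, and 29 of them had enough reads to be tested among 12540 tested genes. All cells were skeletal muscle myoblasts of the inbred strain FVB/N, with no gene deletion or drug named in the labels. The study had 9 libraries in 3 groups of 3: parental myoblasts (PAR), the reserve population labelled FRCs of cycle 1 (FRC1) and the reserve population labelled SRCs of cycle 3 (SRC3). FRCs are present only at cycle 1 and SRCs only at cycle 3, so population and cycle number cannot be told apart in any comparison. Reserve cells are mononucleated cells that stay undifferentiated when a myoblast culture is driven to form myotubes. According to the labels, both reserve populations were returned to growth medium and passaged before their RNA was taken, so the 3 groups were compared as proliferating cultures. Nothing in the labels says that the 3 libraries of a group came from separate cultures, so p-values reflect only how far these libraries differ among themselves, which may be technical spread.

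MHC class I molecules carry short peptides from inside the cell to its surface, where cytotoxic T cells inspect them. The peptides are cut by the proteasome, moved into the endoplasmic reticulum by the transporter of Tap1 and Tap2, trimmed by Erap1, and loaded with the help of tapasin (Tapbp) onto a heavy chain such as H2-K1 or H2-D1, which is held together by the light chain beta-2 microglobulin (B2m). Type I interferons bind the receptor of Ifnar1 and Ifnar2, and a complex that contains Stat2 and Irf9 then binds interferon-stimulated response elements in front of antiviral genes. Resting muscle cells are known for low class I levels, which rise with interferon in inflamed muscle.

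The promoters of H2-K1, B2m and Bst2 are shown first, because these genes rose in SRC3 against both other groups. RefSeq promoter windows on GRCm38.p6, from 250 bases before to 50 after each annotated start, were at hand for 33 of the 38 genes; Tap2, Nlrc5, Dhx58, Usp18 and Parp14 had none. The stretches are the 120 bases before the RefSeq start: chr17:34000348-34000467 on the minus strand for H2-K1, chr2:122147567-122147686 on the plus strand for B2m, and chr8:71537473-71537592 on the minus strand for Bst2. They are written 5′ to 3′ along the gene, and capitals mark CpG dinucleotides.
H2-K1: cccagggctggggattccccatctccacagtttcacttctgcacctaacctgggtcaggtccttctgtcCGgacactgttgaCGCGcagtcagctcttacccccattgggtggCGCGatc
B2m: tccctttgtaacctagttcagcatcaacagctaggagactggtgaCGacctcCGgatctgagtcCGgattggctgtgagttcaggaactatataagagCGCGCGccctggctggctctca
Bst2: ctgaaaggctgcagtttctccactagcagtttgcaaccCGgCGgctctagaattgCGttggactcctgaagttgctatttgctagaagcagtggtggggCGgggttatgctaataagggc
H2-K1 has 5 CpG, B2m 6 and Bst2 4, beside a median of 3 in the same stretch of 27018 genes, and 42.6, 38.3 and 47.6% of those genes have as many or more. The gene starts of the 2 annotations differ for some members, so the GENCODE coordinates given below need not begin at the RefSeq start. These letters are those of the reference mouse C57BL/6J, and FVB/N carries another haplotype at the H2 locus, so they describe the reference and not the sequence of these cells.

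Levels are read counts scaled to a common library total (CPM) after scaling for library composition, given as mean ± SD (n = 3 libraries). Gene counts ran from 13012996 to 14336279 per library, at which 3 reads correspond to 0.209 to 0.231 CPM. A gene was tested when about 0.734 CPM was reached in at least 3 libraries, and 25 of the 29 tested members passed that level in all 9. Ifih1, Isg15 and Ifit1 were tested only through a group in which they were higher. Changes are called at an adjusted p under 0.05 in the quasi-likelihood test of edgeR, adjusted by Benjamini-Hochberg over all tested genes, and every adjusted p below comes from it. In these bulk samples, fewer cells of a type and less RNA per cell cannot be told apart.

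In FRC1 more members fell than rose, and in SRC3 more rose than fell. Against PAR, 3 of the 29 tested members were higher in FRC1 and 9 lower, while 17 did not pass. That is 41.4% called, where 28.3% of all tested genes were called, and the shares in each direction were 10.3% higher and 31% lower beside 13.6% and 14.7% of all genes. SRC3 against PAR gave 9 members higher, 5 lower and 15 not passing, or 48.3% called where 37.9% of all tested genes were, with 31% higher and 17.2% lower beside 17.8% and 20.2%. SRC3 against FRC1 gave 10 higher, 3 lower and 16 not passing, or 44.8% called where 33.5% of all genes were, with 34.5% higher and 10.3% lower beside 15.5% and 18%. The median log2 fold change of the tested members was -0.13, 0.14 and 0.06 in the 3 comparisons in that order, and that of all tested genes lay at 0.00, 0.01 and 0.00. Leaving out Ifih1, Isg15 and Ifit1, and every other gene that reached the filter only through 1 group, left 26 members and 12055 genes. Of these members 3 were higher and 8 lower in FRC1 against PAR (42.3% called, 28.6% of the genes), 8 were higher and 5 lower in SRC3 against PAR (50%, 38%), and 8 were higher and 3 lower in SRC3 against FRC1 (42.3%, 33.4%). These comparisons share libraries pairwise, so their counts are not independent of each other. The smaller counts were not steady. Members higher in FRC1 than in PAR came to 0 without PAR replicate 2 and to 1 without PAR replicate 1, FRC1 replicate 1 or FRC1 replicate 3. Members lower in SRC3 came to 3 against PAR without PAR replicate 1 or SRC3 replicate 1, and to 1 against FRC1 without replicate 1 or 3 of either group. Groups did not overlap for 51.7% of tested members in FRC1 against PAR (44.2% of all genes), for 58.6% in SRC3 against PAR (49.2%) and for 44.8% in SRC3 against FRC1 (42.8%).

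**Figure D1:**
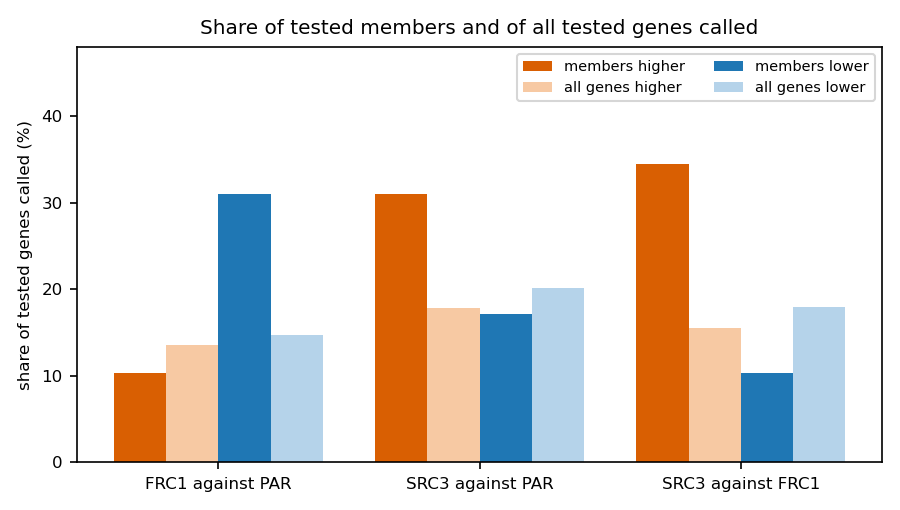
Share of tested genes called higher (orange) or lower (blue) in each of the 3 comparisons, in percent, for the 29 tested members (dark bars) and all 12540 tested genes (pale bars). Members lower in FRC1 than in PAR came to 31% and members higher in SRC3 than in FRC1 to 34.5%, beside 14.7% and 15.5% of all genes.

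Most changes were small. A change of at least 2-fold was called for 2 members in FRC1 against PAR (2.63% of all genes), 3 in SRC3 against PAR (6.71%) and 4 in SRC3 against FRC1 (6.53%), and without the genes tested only through 1 group for 1 (1.88%), 2 (5.51%) and 2 (5.33%). The tested members differed in how they moved. H2-D1, B2m and Ifitm3 were lower in FRC1 than in PAR and higher in SRC3 than in either, Bst2 rose in both reserve populations, Tap1 and Irf1 fell in both, and H2-M3, Tap2, Tapbp, Erap1, Psmb8, Psme1, Ifih1, Dhx58 and Ifi35 passed in no comparison.

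**Figure D2:**
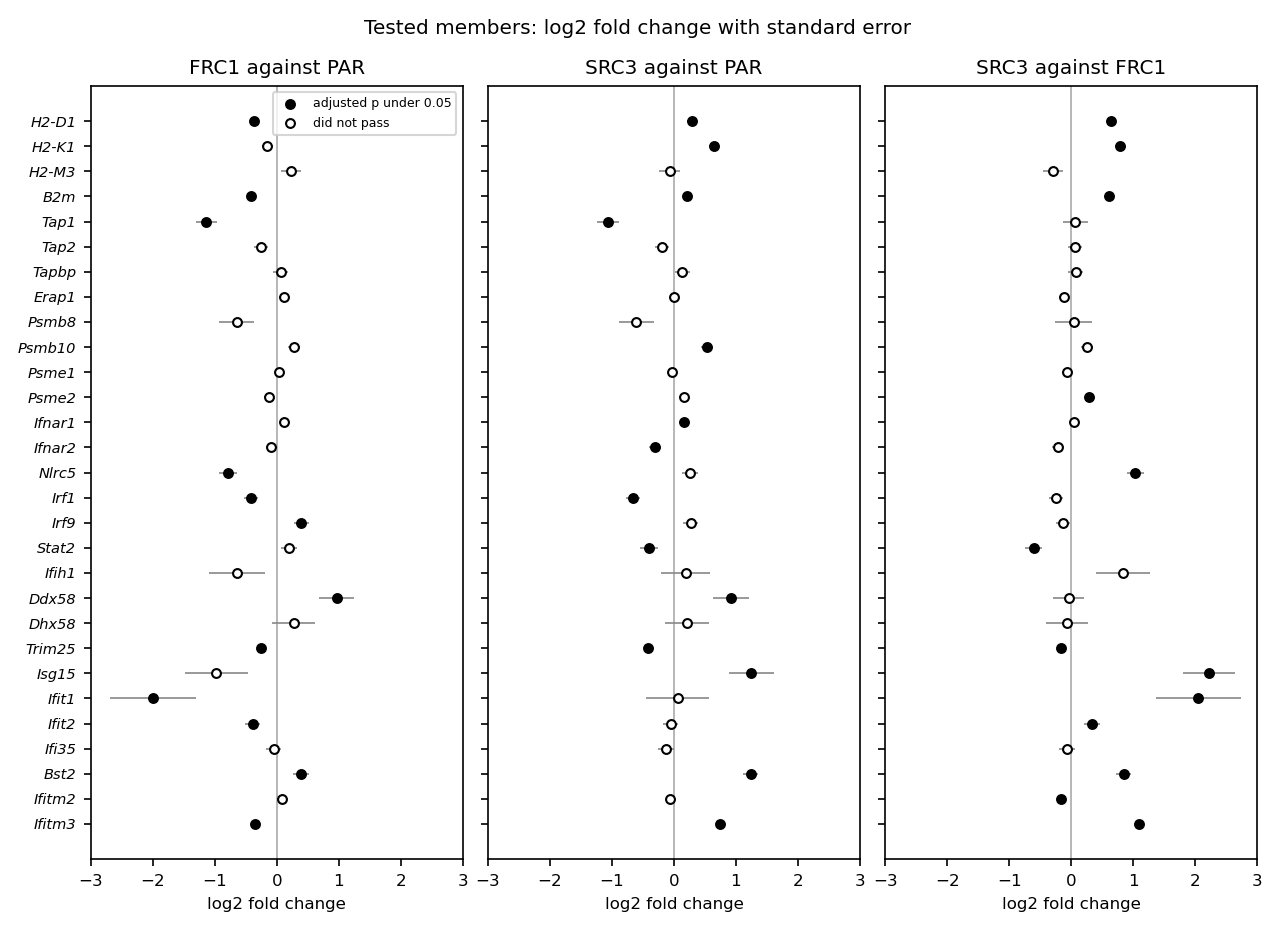
Log2 fold change of each of the 29 tested members in the 3 comparisons, with bars for the standard error; filled points passed an adjusted p of 0.05 and open points did not. Tap1 lies near -1 against PAR in both reserve populations, and Ifit1 has the widest bar in each comparison.

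Among the class I chains, H2-D1 and B2m were lowest in FRC1 and highest in SRC3, and H2-K1 was highest in SRC3. Of the 4 tested, 2 fell and none rose in FRC1 against PAR, while 3 rose and none fell in SRC3 against either group. The share lower in FRC1 was 50%, beside 14.7% of all tested genes. The share higher in SRC3 was 75%, beside 17.8% of all tested genes against PAR and 15.5% against FRC1. With 4 genes these shares are coarse. H2-D1 (ENSMUSG00000073411, chromosome 17, 35262730 to 35267499), a classical heavy chain, stood at 216.2, 204 and 205.5 CPM in PAR, 161.2, 162.8 and 161.8 in FRC1, then 244, 292.2 and 226.7 in SRC3. All FRC1 libraries lay below all PAR libraries and all SRC3 libraries above them, with the widest spread in SRC3. H2-D1 was 1.29-fold lower in FRC1 than in PAR (log2 fold change -0.37, SE 0.071, adjusted p = 0.0012), 1.22-fold higher in SRC3 than in PAR (0.29, SE 0.07, adjusted p = 0.0042) and 1.57-fold higher in SRC3 than in FRC1 (adjusted p = 2.4e-06). The other classical heavy chain, H2-K1 (chromosome 17, 33996017 to 34000347), stood at 65.54, 56.99 and 57.8 CPM in PAR, 48.53, 59.7 and 53.97 in FRC1, then 98.61, 99.86 and 83.37 in SRC3. Here PAR and FRC1 overlapped and SRC3 was separate. H2-K1 rose 1.56-fold in SRC3 against PAR (0.64, SE 0.083, adjusted p = 1.2e-05) and 1.74-fold against FRC1 (adjusted p = 1.5e-06), and did not pass in FRC1 against PAR (-0.15, adjusted p = 0.21). The light chain gene B2m (chromosome 2, 122147686 to 122153083) stood at 240, 229.5 and 221.5 CPM in PAR, 167.5, 186.7 and 165.7 in FRC1, then 266.5, 268.7 and 262.1 in SRC3. B2m was thus ordered like H2-D1, without overlap between groups. It was 1.33-fold lower in FRC1 than in PAR (-0.41, SE 0.052, adjusted p = 9.6e-06), 1.15-fold higher in SRC3 than in PAR (adjusted p = 0.0034) and 1.53-fold higher in SRC3 than in FRC1 (adjusted p = 1.4e-08).

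Per kilobase of annotated exon, B2m was at 268 CPM per kb in PAR, H2-D1 at 80.9 and H2-K1 at 20.5. The length used joins all annotated exons of a gene and can exceed that of its transcript, so these levels compare genes only roughly. By this measure B2m had the highest level of these genes in every group, at 202 CPM per kb in FRC1 and 309 in SRC3. In CPM, the mean ratio of H2-D1 to B2m was 0.906 for PAR libraries, 0.937 for FRC1 libraries and 0.956 for SRC3 libraries. The nonclassical heavy chain H2-M3, which presents formylated peptides, was at 4.687 ± 0.549, 5.496 ± 0.762 and 4.474 ± 0.3 CPM in PAR, FRC1 and SRC3 and passed in no comparison. H2-T23, the heavy chain that carries signal peptides to natural killer receptors, had 20, 15 and 25 reads in all in the 3 groups and was not tested. Reads that align to several places were set aside before gene counting, so heavy chain counts rest on unique reads aligned to the reference haplotype, and counts of these near-copies are uncertain.

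**Figure D3:**
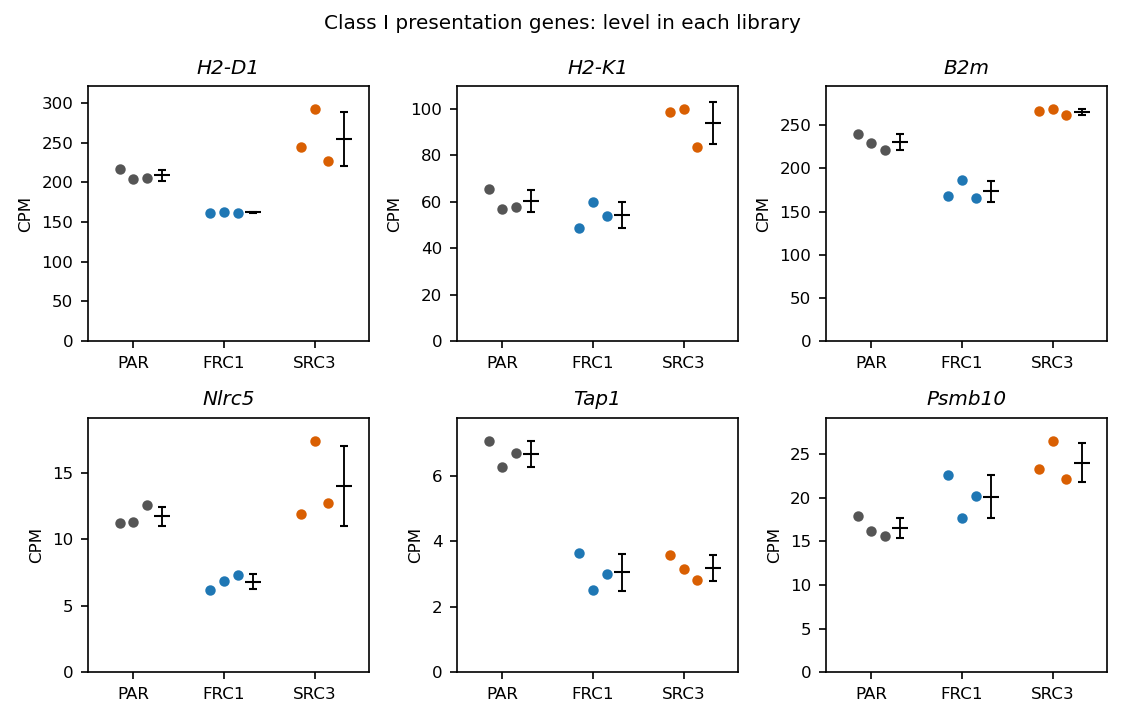
CPM in each library (points) with mean and SD (bars) for 6 genes of class I presentation in PAR, FRC1 and SRC3, each panel with its own axis from 0. H2-D1, B2m and Nlrc5 are lowest in FRC1, and Tap1 is lower in FRC1 and SRC3 than in PAR.

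Nlrc5, the NOD-like receptor that drives transcription of class I genes, had the same order of group means. Nlrc5 (chromosome 8, 94434356 to 94527272) stood at 11.26, 11.32 and 12.57 CPM in PAR, 6.208, 6.851 and 7.333 in FRC1, then 11.87, 17.41 and 12.76 in SRC3. FRC1 was apart from both other groups, which overlapped each other, and SRC3 replicate 2 was the highest library, as it was for H2-D1. Nlrc5 was 1.72-fold lower in FRC1 than in PAR (-0.78, SE 0.14, adjusted p = 0.00044) and 2.05-fold higher in SRC3 than in FRC1 (1.04, SE 0.14, adjusted p = 8.7e-06), and SRC3 against PAR did not pass (0.26, adjusted p = 0.13). SRC3 replicate 2 was the highest of its group in 19 of the 29 tested members, or 65.5%, beside 37.8% of all tested genes. FRC1 replicate 1 was the highest of its group in 17, or 58.6%, beside 37.4%. The Nlrc5, H2-D1, H2-K1 and B2m calls held with either library left out.

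The transporter gene Tap1, unlike the chains, fell in both reserve populations. Of the 4 tested genes for transport, trimming and loading, Tap1 fell in FRC1 and in SRC3 against PAR, and the other 3 passed in no comparison. Tap1 (chromosome 17, 34187553 to 34197225), which with Tap2 forms the peptide pump, stood at 7.064, 6.273 and 6.674 CPM in PAR, 3.634, 2.517 and 2.99 in FRC1, then 3.59, 3.159 and 2.809 in SRC3. Both reserve populations lay below every PAR library and overlapped each other. Tap1 was 2.2-fold lower in FRC1 than in PAR (-1.13, SE 0.17, adjusted p = 6e-05), 2.09-fold lower in SRC3 (-1.06, SE 0.17, adjusted p = 5.1e-05) and did not pass between the reserve populations (0.07, adjusted p = 0.81). Its partner Tap2 was at 19.09 ± 0.917, 16.04 ± 2.24 and 16.71 ± 2.37 CPM, with adjusted p of 0.099 and 0.19 against PAR. It would be called lower in FRC1 without FRC1 replicate 1 (adjusted p = 0.023) and lower in SRC3 without SRC3 replicate 2 (0.04). The ratio of Tap1 to Tap2 was 0.35 ± 0.0272 in PAR, 0.189 ± 0.00909 in FRC1 and 0.193 ± 0.0335 in SRC3. Tapasin (Tapbp), which bridges the transporter and the empty heavy chain, was at 9.902 ± 0.656, 10.35 ± 1.17 and 10.89 ± 0.685 CPM, and the trimming peptidase Erap1 at 24.6 ± 0.401, 26.53 ± 1.98 and 24.52 ± 0.766. Tap1 shares 212 exon bases with Psmb9 on the opposite strand, and as the strand setting of the counting is not given in the sources used here, reads there cannot be told apart.

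The immunoproteasome replaces the catalytic subunits of the standard proteasome with Psmb8, Psmb9 and Psmb10, and its activator is built of Psme1 and Psme2. Of the 4 tested genes none passed in FRC1 against PAR, Psmb10 rose in SRC3 against PAR, and Psme2 rose in SRC3 against FRC1. Psmb10 stood at 17.84, 16.22 and 15.62 CPM in PAR, 22.56, 17.62 and 20.15 in FRC1, then 23.3, 26.51 and 22.17 in SRC3. SRC3 lay above PAR throughout and FRC1 reached into both. Psmb10 was 1.45-fold higher in SRC3 than in PAR (0.53, SE 0.1, adjusted p = 0.00033), and the other comparisons were close to the threshold, with adjusted p of 0.052 for FRC1 against PAR and 0.054 for SRC3 against FRC1. The first passed when FRC1 replicate 2 (0.02), SRC3 replicate 2 (0.037) or SRC3 replicate 3 (0.04) was left out. It also passed with library sizes alone, no filter, a stricter filter, a replicate term or only the groups compared (0.038 to 0.0498). The second passed without FRC1 replicate 1 (0.016) or SRC3 replicate 3 (0.031), and with RLE factors, no filter or a stricter filter (0.042 to 0.049). Psme2 stood at 33.99, 37.26 and 32.95 CPM in PAR, 31.87, 29.85 and 33.39 in FRC1, then 36.93, 39.91 and 39.56 in SRC3. SRC3 was above FRC1 without overlap and shared its lower end with PAR. Psme2 was 1.22-fold higher in SRC3 than in FRC1 (0.29, SE 0.073, adjusted p = 0.0041); against PAR the adjusted p was 0.088, and 0.049 without PAR replicate 2. Psme1 was at 34.54 ± 0.965, 35.51 ± 2.01 and 33.85 ± 1.99 CPM and passed in no comparison.

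The other inducible catalytic subunits were low. Psmb8 stood at 2.658, 2.601 and 2.556 CPM in PAR, 2.423, 1.748 and 0.8544 in FRC1, then 1.465, 2.08 and 1.595 in SRC3. All 6 reserve libraries were below PAR, but Psmb8 did not pass in FRC1 (-0.64, adjusted p = 0.093) or SRC3 (-0.60, adjusted p = 0.098). Without FRC1 replicate 1 it passed in FRC1 (adjusted p = 0.018), and with only the groups compared it passed in SRC3 (0.049). Psmb9 had 18 reads in PAR, 3 in FRC1 and 6 in SRC3 and was not tested. Their standard counterparts Psmb5 (46.12 ± 3.69 CPM in PAR), Psmb6 (171.6 ± 6.97) and Psmb7 (185.1 ± 7.13) are the main catalytic subunits of resting cells. Psmb6 and Psmb7 rose in SRC3 against PAR by 1.17-fold (adjusted p = 0.0013) and 1.1-fold (adjusted p = 0.034), and Psmb5 passed in no comparison. The Psmb7 call did not pass without PAR replicate 2 or 3 or SRC3 replicate 1 or 2 (0.053 to 0.14), nor with no filter (0.053). Psmb5 passed in SRC3 against PAR without SRC3 replicate 3 (0.0084) or with no filter (0.035). The ratio of Psmb10 to Psmb7, the subunit it replaces, was 0.0894 ± 0.00408 in PAR, 0.11 ± 0.0153 in FRC1 and 0.118 ± 0.00843 in SRC3. That of Psmb8 to Psmb5 went the other way, at 0.0567 ± 0.00413, 0.0336 ± 0.0153 and 0.0325 ± 0.00346. Neither ratio was tested.

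Both chains of the type I interferon receptor were expressed, and neither passed in FRC1 against PAR. Ifnar1 stood at 87.57, 87.98 and 85.56 CPM in PAR, 97.44, 91.09 and 94.83 in FRC1, then 96.2, 96.62 and 99.62 in SRC3. Ifnar1 lay lowest in PAR and rose 1.12-fold in SRC3 (0.16, SE 0.051, adjusted p = 0.016), a call that just missed the threshold without PAR replicate 3 (0.0506). Ifnar2 stood at 18.12, 16.98 and 17.11 CPM in PAR, 15.45, 16.36 and 17.3 in FRC1, then 13.11, 14.33 and 14.81 in SRC3. Ifnar2 was lowest in SRC3, 1.24-fold below PAR (-0.31, SE 0.094, adjusted p = 0.015), so the chains of one receptor moved in opposite directions there. The Ifnar2 call did not pass without PAR replicate 1 (0.068) or SRC3 replicate 1 (0.081). Ifnar2 shares 315 exon bases with Gm21970 on its strand, so its counts rest on the reads that could be told apart.

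The regulators Irf1, Stat2 and Irf9 each had their own pattern. Irf1, an interferon-induced activator of class I genes and of Tap1 and Psmb9, stood at 19.65, 20.43 and 21.3 CPM in PAR, 18.55, 13.28 and 14.45 in FRC1, then 13.55, 13.72 and 11.69 in SRC3. PAR was highest, and the reserve populations overlapped. Irf1 was 1.33-fold lower in FRC1 (-0.41, SE 0.11, adjusted p = 0.0093) and 1.57-fold lower in SRC3 (-0.65, SE 0.11, adjusted p = 0.00013). The call in FRC1 did not pass without FRC1 replicate 2 (0.055) or FRC1 replicate 3 (0.0501), and SRC3 against FRC1 (-0.24, adjusted p = 0.12) passed without FRC1 replicate 2 (0.043). Stat2, a subunit of the complex that binds response elements, stood at 9.722, 9.792 and 9.941 CPM in PAR, 9.54, 10.49 and 13.74 in FRC1, then 7.033, 8.013 and 7.214 in SRC3. SRC3 was below every other library. Stat2 was 1.52-fold lower in SRC3 than in FRC1 (-0.60, SE 0.14, adjusted p = 0.0018) and 1.32-fold lower than in PAR (adjusted p = 0.027), and the latter did not pass without any one of the PAR libraries, SRC3 replicate 1 or SRC3 replicate 3 (0.062 to 0.1). Irf9, the DNA-binding subunit of that complex, stood at 7.834, 7.65 and 8.024 CPM in PAR, 9.313, 10.56 and 11.04 in FRC1, then 9.817, 9.631 and 8.884 in SRC3. Irf9 was lowest in PAR and rose 1.32-fold in FRC1 (0.40, SE 0.12, adjusted p = 0.017), a call lost without PAR replicate 1 or 2 or FRC1 replicate 2 or 3 (0.053 to 0.086); SRC3 did not pass (0.27, adjusted p = 0.085). Irf9 shares 123 exon bases with Rnf31 on its strand, with the same limit as for Ifnar2. Irf7, the inducible regulator of interferon genes, had 11, 10 and 9 reads in the 3 groups and was not tested.

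The RNA sensors were scarce while a regulator of theirs was abundant. Ddx58, which encodes the sensor RIG-I, stood at 1.119, 0.765 and 1.42 CPM in PAR, 2.726, 1.678 and 2.136 in FRC1, then 2.271, 1.926 and 2.126 in SRC3, from 46, 90 and 84 reads a group. Every reserve library was above every PAR library. Ddx58 was 1.95-fold higher in FRC1 (0.96, SE 0.28, adjusted p = 0.015) and 1.9-fold higher in SRC3 (0.92, SE 0.29, adjusted p = 0.015), neither of which passed without PAR replicate 2 (0.081 and 0.079), nor the first without FRC1 replicate 1 (0.068) or the second without SRC3 replicate 1 (0.053). The sensors Ifih1 (MDA5) and Dhx58 (LGP2) ranged from 0.612 to 2.157 CPM and averaged 0.8964 to 1.087 CPM a group, respectively, and passed in no comparison. Trim25, a ubiquitin ligase of RIG-I signalling, stood at 76.31, 74.59 and 74.84 CPM in PAR, 67.23, 59.14 and 63.36 in FRC1, then 53.7, 58.87 and 57.03 in SRC3. It stepped down from PAR to FRC1 to SRC3 without overlap. Trim25 was 1.19-fold lower in FRC1 than in PAR (-0.25, SE 0.06, adjusted p = 0.0036) and 1.33-fold lower in SRC3 (-0.41, SE 0.06, adjusted p = 1.7e-05). SRC3 against FRC1 was at the threshold (-0.16, adjusted p = 0.048) and did not pass without any one library other than FRC1 replicate 2 or SRC3 replicate 2 (0.07 to 0.22), nor under any of the other settings run.

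Isg15, a ubiquitin-like protein that interferon induces, was near the detection limit. No library of PAR or FRC1 reached the filter, so it was tested only because it was higher in SRC3, and its calls in that direction are a description. It stood at 0.4896, 0.5355 and 0.426 CPM in PAR, 0.3028, 0.2097 and 0.2136 in FRC1, then 0.9524, 1.464 and 1.063 in SRC3, from 20, 10 and 46 reads a group. The groups did not overlap. Isg15 was 4.67-fold higher in SRC3 than in FRC1 (2.22, SE 0.42, adjusted p = 0.00036) and 2.37-fold higher than in PAR (1.25, SE 0.36, adjusted p = 0.011), the latter not passing without SRC3 replicate 2 (0.057) or with DESeq2 (0.077); FRC1 against PAR did not pass (-0.98, adjusted p = 0.16). Usp18, the protease that removes ISG15 from proteins, had 1 read in PAR and 0 in the other groups.

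Of the 10 effector genes 6 were tested, and the pair that was highest per length did not move together. Ifitm3 and Ifitm2 are neighbouring genes on chromosome 7 for membrane proteins that block virus entry. Ifitm3 (141009586 to 141010770) stood at 59.59, 58.6 and 58.08 CPM in PAR, 49.29, 43.13 and 46.06 in FRC1, then 100, 96.55 and 98.48 in SRC3. FRC1 was lowest and SRC3 highest, with gaps wider than the spread within any group. Ifitm3 was 1.27-fold lower in FRC1 than in PAR (-0.35, SE 0.06, adjusted p = 0.00023), 1.67-fold higher in SRC3 than in PAR (0.74, SE 0.057, adjusted p = 2.3e-09) and 2.13-fold higher in SRC3 than in FRC1 (1.09, SE 0.058, adjusted p = 9.6e-12). Ifitm2 stood at 92.12, 90.27 and 88.83 CPM in PAR, 97.82, 95.08 and 94.9 in FRC1, then 87.11, 87.53 and 83.75 in SRC3. Its order was the reverse, within a narrow range. Ifitm2 passed only in SRC3 against FRC1, 1.11-fold lower (-0.16, SE 0.05, adjusted p = 0.022), and not without FRC1 replicate 1 or 3 or SRC3 replicate 1 or 3 (0.056 to 0.074). The ratio of Ifitm3 to Ifitm2 was 0.650 ± 0.00355 in PAR, 0.481 ± 0.0254 in FRC1 and 1.14 ± 0.0368 in SRC3. These paralogs share sequence, and Ifitm2 shares exon bases with another gene on its strand, so their counts rest on the reads that could be told apart.

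Bst2 (tetherin), which holds budding virus at the cell surface, rose in both reserve populations. Bst2 stood at 9.023, 7.956 and 8.592 CPM in PAR, 11.05, 9.508 and 12.96 in FRC1, then 19.12, 23.04 and 18.3 in SRC3. The groups did not overlap, and SRC3 was well above FRC1. Bst2 was 2.36-fold higher in SRC3 than in PAR (1.24, SE 0.12, adjusted p = 1.3e-07) and 1.8-fold higher than in FRC1 (0.85, SE 0.12, adjusted p = 1.2e-05). FRC1 against PAR was 1.31-fold (0.39, SE 0.13, adjusted p = 0.035) and did not pass without any one of the PAR libraries or FRC1 replicate 1 or 3 (0.05 to 0.22), nor with DESeq2 (0.056).

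Of the Ifit genes, whose proteins bind viral RNA, Ifit2 and Ifit1 were tested. Ifit2 stood at 13.43, 14.23 and 13.7 CPM in PAR, 11.96, 8.599 and 11.04 in FRC1, then 15.17, 11.56 and 13.14 in SRC3. FRC1 was below PAR, while SRC3 overlapped both. Ifit2 was 1.31-fold lower in FRC1 than in PAR (-0.39, SE 0.13, adjusted p = 0.026), not passing without any one PAR library or FRC1 replicate 2 (0.055 to 0.14). It was 1.27-fold higher in SRC3 than in FRC1 (0.34, SE 0.13, adjusted p = 0.046), not passing without any one PAR library, FRC1 replicate 2 or 3, or SRC3 replicate 1 or 3 (0.052 to 0.22). Ifit1 had 29, 7 and 29 reads in PAR, FRC1 and SRC3, with 0 reads in FRC1 replicate 3, and stood at 0.4197, 0.765 and 0.9231 CPM, 0.4543, 0.06991 and 0 CPM, and 0.8059, 1.002 and 0.3797 CPM. No FRC1 library reached the filter, so Ifit1 was tested only through PAR and SRC3, where it was higher, and its calls are a description. The groups overlapped because FRC1 replicate 1 was above the lowest library of each other group. Ifit1 was called lower in FRC1 than in PAR (SE of the log2 fold change 0.69, adjusted p = 0.037) and higher in SRC3 than in FRC1 (2.05, SE 0.69, adjusted p = 0.027). The first call did not pass without PAR replicate 2 or 3, FRC1 replicate 2 or 3, or the first SRC3 library (0.052 to 0.15), and the second without FRC1 replicate 2 or 3 or SRC3 replicate 1 or 2 (0.08 to 0.11). Ifi35 was at 10.87 ± 1.47, 10.51 ± 0.625 and 9.988 ± 1.3 CPM and passed in no comparison.

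**Figure D4:**
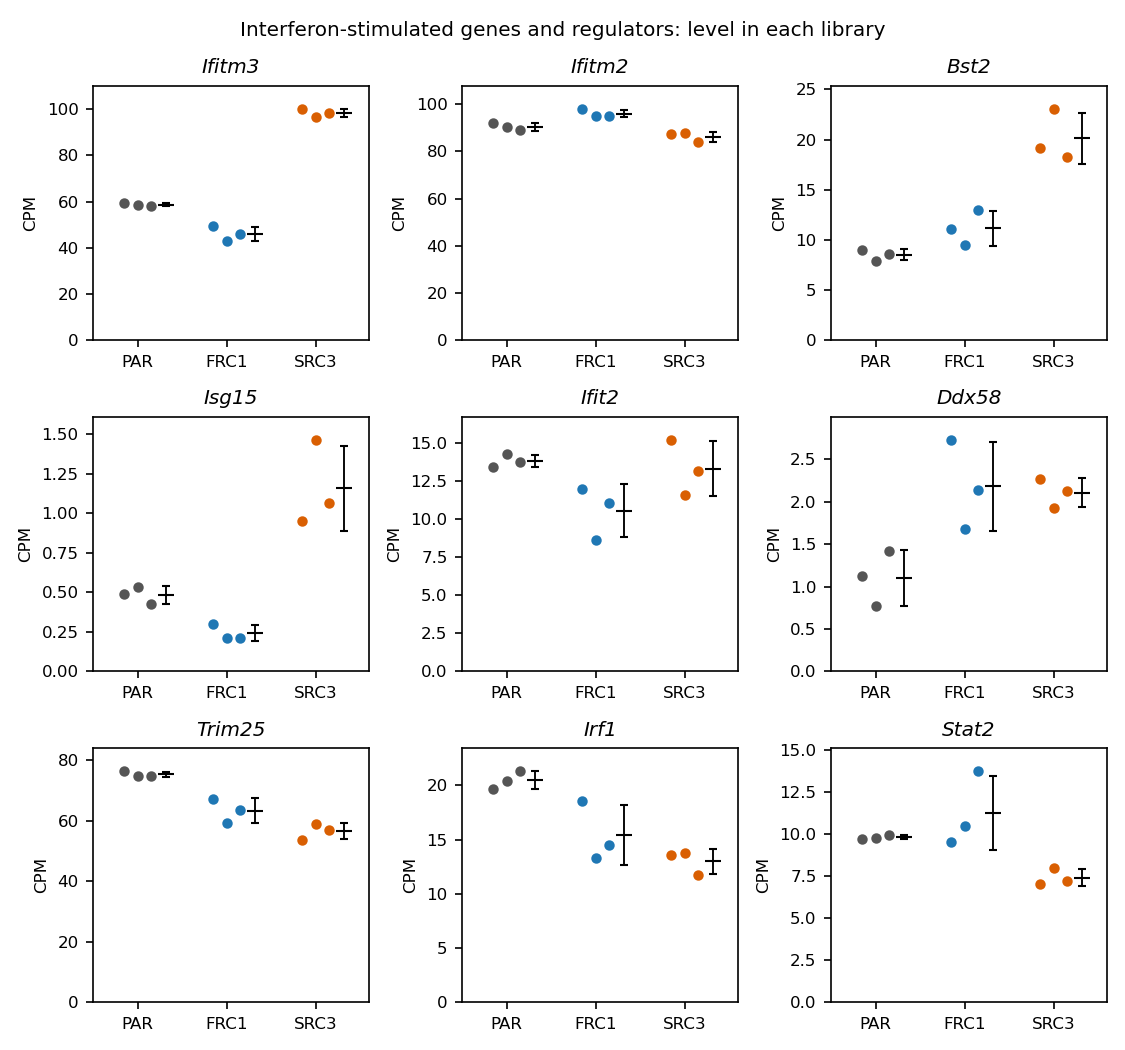
CPM in each library (points) with mean and SD (bars) for 9 interferon-stimulated genes, sensors and regulators in PAR, FRC1 and SRC3, each panel with its own axis from 0. Ifitm3 spans 43.13 to 100 CPM with 3 separate groups while Ifitm2 stays between 83.75 and 97.82, and Trim25 and Irf1 are highest in PAR.

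The remaining members were hardly detected. Reads in PAR, FRC1 and SRC3 came to 2, 1 and 3 for Ifit3, 21, 16 and 26 for Oasl2, 15, 8 and 35 for Rsad2 (viperin), and 6, 12 and 17 for Parp14. The checkpoint ligand Cd274 (PD-L1), which restrains T cells, had 10, 11 and 11 reads, or 0.2488, 0.2639 and 0.277 CPM. At this depth no difference in these genes could be tested. The highest level of an untested member in any library was 1.23 CPM.

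Around these genes, 172 related genes were listed, 168 had a row and 90 were tested. In FRC1 against PAR 12 rose, 15 fell and 63 did not pass, or 30% called beside the 28.3% of all genes. In SRC3 against PAR 19 rose and 25 fell (48.9% called beside 37.9%), and in SRC3 against FRC1 11 rose and 20 fell (34.4% beside 33.5%). No interferon gene was tested: of 11 listed, 10 had 0 reads in all libraries, and the other, Ifne, was seen with a few reads in FRC1. Of 4 tested class II presentation genes, Rfx5, a promoter-binding factor of both class I and class II genes, fell from 17.1 ± 1.19 CPM in PAR to 12.44 ± 0.822 in FRC1 (1.38-fold, adjusted p = 0.0021) and 8.442 ± 0.605 in SRC3 (2.02-fold, adjusted p = 2.9e-07), while Cd74, H2-Aa and H2-Ab1 had 0 reads.

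Chaperones and translocon subunits of the endoplasmic reticulum were among the related genes that rose. Of 8 tested, Calr, Canx, Pdia3, Hspa5, Sec61a1 and Sec61b rose against PAR in FRC1 and in SRC3. Lnpep, a trimming peptidase, fell in each, and Tapbpl passed in neither. That is 75% higher in each, beside 13.6% and 17.8% of all tested genes. Hspa5 (BiP), a general folding chaperone, went from 1976 ± 81 CPM in PAR to 3801 ± 281 in FRC1 (1.92-fold, adjusted p = 3e-07) and 4365 ± 440 in SRC3 (2.21-fold, adjusted p = 6.6e-09). Pdia3 (ERp57), a member of the class I loading complex, went from 1404 ± 54.1 to 2052 ± 150 (1.46-fold, adjusted p = 3.4e-07) and 2302 ± 94.1 CPM (1.64-fold, adjusted p = 1.5e-09). These proteins fold many others, so this list is not particular to class I. Among 7 other tested class I genes, H2-Q4 rose in SRC3 against FRC1, and Hfe, the iron-regulating class I relative, was called in SRC3 against PAR after being tested only through SRC3, where it was higher. H2-Q4 was at 6.71 ± 0.544, 5.067 ± 0.706 and 8.644 ± 1.8 CPM and 1.71-fold higher in SRC3 than in FRC1 (adjusted p = 0.00094).

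Of 15 tested genes of interferon receptor chains and signalling, 1 rose (Irf3) and 6 fell (Stat3, Jak1, Jak2, Ifngr1, Il10rb and Irf2) in SRC3 against PAR, and 1 rose (Socs3) and 6 fell against FRC1. That is 40% lower in each, beside 20.2% and 18% of all tested genes. The interferon-gamma receptor chain Ifngr1 was at 24.93 ± 0.361, 27.52 ± 1.1 and 19.7 ± 1.65 CPM, 1.26-fold lower in SRC3 than in PAR (adjusted p = 0.0029), and Il10rb, shared by interleukin-10 and type III interferon receptors, at 12.35 ± 0.585, 12.51 ± 0.861 and 6.903 ± 0.433, 1.78-fold lower (adjusted p = 9.1e-06). Stat3 fell 1.42-fold (adjusted p = 3.9e-05), from 41.38 ± 2.1 in PAR to 29.15 ± 3.43 CPM in SRC3. Of 10 tested nucleic acid sensing genes, 1 rose (Mb21d1, which encodes cGAS) and 5 fell in SRC3 against PAR, namely Mavs, Tmem173 (STING), Tlr3, Rnf135 and Eif2ak2 (PKR), the double-stranded RNA kinase, which went from 32.73 ± 1.03 to 25.57 ± 2.72 CPM (1.28-fold, adjusted p = 0.0028). In FRC1 Eif2ak2 was at 22.23 ± 2.08, 1.47-fold below PAR (adjusted p = 9.4e-05). The shares of sensing genes in SRC3 against PAR were 10% higher and 50% lower, beside 17.8% and 20.2% of all tested genes. In FRC1 against PAR, Eif2ak2 was the only sensing gene called, or 10% lower beside 14.7%.

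Of 32 tested genes outside the list that were taken as interferon-stimulated, 3 rose and 8 fell in FRC1 against PAR. In SRC3, 6 rose and 8 fell against PAR, and 3 rose and 7 fell against FRC1. The called shares, 34.4, 43.8 and 31.2%, lay near the 28.3, 37.9 and 33.5% of all tested genes. Gbp9, a guanylate-binding protein gene, had the largest fall of this list among those at 1 CPM or more, from 30.28 ± 3.8 in PAR to 17.23 ± 4.47 in FRC1 and 3.627 ± 0.699 CPM in SRC3 (8.36-fold in SRC3 against PAR, adjusted p = 9.7e-08). Herc6, a ligase for ISG15, was at 1.147 ± 0.337, 1.617 ± 0.18 and 0.3252 ± 0.107 CPM, 3.47-fold lower in SRC3 than in PAR (adjusted p = 0.0018). Ifitm10 rose, from 1.183 ± 0.0563 to 2.841 ± 0.966 (2.41-fold, adjusted p = 0.002) and 3.242 ± 0.532 CPM (2.73-fold, adjusted p = 0.0003). Its response to interferon was not tested here. Of 8 tested checkpoint and recognition ligands, 1 rose (Pvr) and 4 fell (Cd276, Ulbp1, Cd200 and Lgals9) in SRC3 against PAR. That is 12.5% higher and 50% lower, beside 17.8% and 20.2% of all tested genes. Cd200, a brake on myeloid cells, went from 108.9 ± 6.51 in PAR and 113.1 ± 7.54 in FRC1 to 53.62 ± 3.44 CPM in SRC3 (2.03-fold below PAR, adjusted p = 1.7e-10), and Lgals9 (galectin-9) from 7.948 ± 0.48 in PAR to 3.114 ± 0.378 in FRC1 (2.55-fold, adjusted p = 0.00017) and 2.94 ± 1.34 in SRC3 (2.7-fold, adjusted p = 5e-05).

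Markers of cell identity were read beside these genes, which leukocytes express strongly. Most myoblast markers were abundant: Myod1 was at 775.8 ± 15.1, 770.1 ± 15.9 and 539.1 ± 18.8 CPM and Pax7 at 127 ± 8.23, 113.7 ± 7.55 and 72.62 ± 3.15. Of 9 listed, 8 were tested, and Heyl had at most 2 reads in a library. Against PAR, 1 rose (Ncam1) in each reserve population, while 3 fell in FRC1 and 6 in SRC3. That is 37.5% and 75% lower, beside 14.7% and 20.2% of all tested genes. The share higher was 12.5% in each, beside 13.6% and 17.8%. Itga7 passed in no comparison. Of 17 leukocyte markers 16 had a row; their summed level was 6.81 to 7.13 CPM in PAR, 7.04 to 7.55 in FRC1 and 7.94 to 8.35 in SRC3, and 7, 8 and 7 of them were detected. Tyrobp, Lyz2, Cd3e, Nkg7 and Itgax had 0 reads, Ptprc (CD45) had 2 reads in all, and the tested markers, Cd68 and Cd14, passed in no comparison. Myoblast markers summed to 3349 to 3464 CPM in PAR, 3268 to 3303 in FRC1 and 2416 to 2607 in SRC3, and fibroblast markers to 558 to 587, 287 to 401 and 280 to 308. Col3a1 made up most of the fibroblast sum (560.6 ± 15.9 CPM in PAR). It was lower than in PAR in FRC1 (1.69-fold, adjusted p = 0.0006) and in SRC3 (2.01-fold, adjusted p = 4.6e-05). Ly6a was lower too, in FRC1 (1.77-fold, adjusted p = 0.028) and in SRC3 (1.8-fold, adjusted p = 0.019). Pdgfra was lower in FRC1 (1.51-fold, adjusted p = 0.024) and did not pass in SRC3 against PAR. Cd34 rose 3.75-fold in SRC3 against PAR (adjusted p = 1.3e-05), and Lum had 0 reads. Pericyte and smooth muscle markers summed to 778 to 814, 822 to 837 and 516 to 555 CPM, mostly from Des, which myoblasts share. Of these, Cspg4 (NG2) was at 0.695 ± 0.325, 7.81 ± 2.91 and 52.3 ± 9 CPM, higher in both reserve populations (adjusted p = 0.00088 and 1.3e-06). Acta2, smooth muscle actin, was at 67.1 ± 5.64, 199.2 ± 30.3 and 8.58 ± 5.29 CPM, 2.97-fold higher in FRC1 (adjusted p = 0.0046) and 7.83-fold lower in SRC3 (adjusted p = 0.00067) than in PAR. The part of these marker levels in the results was not tested.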

How the data were processed

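Polyadenylated RNA was read as 50-nt single reads on an Illumina HiSeq after a stranded mRNA library protocol, per the labels' protocols. The deposited files hold raw read counts per gene, and the tools HISAT2 (2.1.0), HTSeq (0.9.1) and DESeq2 with build GRCm38 are listed in the submitters' processing notes. The strand setting is not given in the sources used here, and 18 members share exon bases with another gene. Summary lines that name no gene were left out (reads in no gene were 5.92 to 7.92% and ambiguous reads 1.18 to 1.21% of uniquely aligned reads). Alignments that were not unique, also left out, numbered 15795855 to 16889632 a library in PAR, 16473546 to 18523924 in FRC1 and 18602150 to 19695230 in SRC3. In every library they exceeded the gene counts. Whether a read can enter this line more than once is not given in the sources used here. Its part in the counts of near-copy genes was not tested.

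Counts of all 9 libraries were fitted together in edgeR 4.0.16 (R 4.3.3) with TMM scaling, filterByExpr (10 counts in a library, 15 in total), group as the term and two-sided quasi-likelihood tests. The pipeline was tested on simulated data, and no replicate pair was as alike as sampling noise. Members, lists and tests were chosen with earlier results of these data known. Values per library are given for members that passed with at least 1 CPM, at most 5 a role, and a few others; up to 3 genes a related list were named by largest change. Alternatives were RLE factors, no factors, no filter, a stricter filter (5 CPM in 3 libraries), DESeq2 1.42.0, only the groups compared, a replicate term and each library left out. Values of 2 further listed genes are not reported here.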

Additional observations from a re-analysis of the deposited data

How the results depend on the processing

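Of the called members, 6 of 12 in FRC1 against PAR, 9 of 14 in SRC3 against PAR and 9 of 13 in SRC3 against FRC1 were called under every alternative run, and 0 named results reversed. Members higher in FRC1 than in PAR (3) became 1 with DESeq2 and 0 to 4 with a library left out. Members lower in FRC1 than in PAR (9) ranged from 6 to 11 with a library left out. Members lower in SRC3 than in PAR (5) ranged from 3 to 6, and members lower in SRC3 than in FRC1 (3) from 1 to 4. The latter became 2 with RLE factors, without factors, without a filter and with the stricter filter, and 1 with DESeq2 and with only the groups compared. Related genes higher in SRC3 than in FRC1 (11) ranged from 6 (without SRC3 replicate 1) to 11, and related genes lower in FRC1 than in PAR (15) from 10 to 17. DESeq2 did not call Bst2, Irf9 and Ifit1 in FRC1 against PAR, Isg15 and Stat2 in SRC3 against PAR, or Ifit2, Ifitm2 and Trim25 in SRC3 against FRC1. Leaving out genes tested only through 1 group, an alternative chosen after seeing the data, kept each member count within 1.5 times. Other causes were not tested.

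Deviations of same-numbered samples correlated at -0.0704 to 0.118, with 1 of 9 pairs over 0.1, and those of other pairs at -0.0894 to 0.122. Same-numbered pairs with PAR were all positive (0.022 to 0.118), while same-numbered pairs of FRC1 and SRC3 were at 0.032, -0.055 and -0.070. Most other pairs with PAR were negative. Deviations were centred within each group, so other pairs lean negative where same-numbered ones are positive, and their sign adds nothing. Whether replicate numbers mark pairs was not tested. With the replicate block, FRC1 against PAR had 4 members higher and 9 lower (related genes 13 and 15), SRC3 against PAR had 9 higher and 5 lower (19 and 25), and SRC3 against FRC1 had 10 higher and 2 lower (11 and 20). Over all genes, the FRC1 against PAR calls fell from 3550 to 2327 without FRC1 replicate 3. Depth limits the members with few reads, of which 9 were not tested.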

Other observations

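Among the related interferon-stimulated genes, Ifi203, Mndal and Zc3hav1 were called lower in FRC1 and higher in SRC3 than in PAR. They were chosen after their values were seen, and these are the directions called for H2-D1, B2m and Ifitm3. They do not stand for their list of 32 tested genes, of which 3 rose and 8 fell in FRC1 against PAR. In SRC3 against PAR 6 of that list rose and 8 fell, or 18.8% and 25% beside 17.8% and 20.2% of all genes. The share of genes with this pattern was not counted. Zc3hav1, the zinc-finger antiviral protein, averaged 284.2 ± 8.87 CPM (SD, n = 3) in PAR, 237.8 ± 9.53 in FRC1 and 329.4 ± 14.2 in SRC3. Ifi203, of the AIM2-like family, averaged 66.2 ± 3.15, 51.9 ± 0.825 and 112.3 ± 14.1 CPM. Its relative Mndal averaged 5.86 ± 0.206, 4.145 ± 0.631 and 8.11 ± 0.796 CPM. These family members are close copies of each other and were counted from unique reads. The Mndal call in FRC1 did not pass without PAR replicate 1 (adjusted p = 0.0753), PAR replicate 2 (0.0502) or FRC1 replicate 3 (0.126), or with DESeq2 (0.0591), nor in SRC3 without SRC3 replicate 3 (0.0504).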
